A study of Mus musculus with 6 samples.

Results

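The 40 genes described here build, cross-link, regulate or report on the actin cytoskeleton, and many are known targets of serum response factor (SRF) and its actin-sensing coactivators. They were read in RNA-seq of C2C12 cells, a mouse myoblast line, as the rows of the deposited table whose symbol equals one of 40 listed names, out of 22375 rows. The CON group was not stretched, and the 4H group was stretched cyclically at 15% elongation for 4 h on elastic plates coated with poly-lysine, with cells seeded close to confluence. Each group had 3 libraries, and the labels name no genetic change in either. All libraries came from poly(A)-selected RNA prepared with a strand-specific protocol. Replicates are named CON 1 to 3 and 4H 1 to 3 by the replicate numbers of the labels. The libraries called 4H 1, 4H 2 and 4H 3 here are titled 4H1, 4H3 and 4H4. The labels do not say whether they were separate cultures. P-values therefore measure the spread between these libraries, which may be technical.

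Actin monomers bind the myocardin-related transcription factors (MRTF-A and MRTF-B, encoded by Mrtfa and Mrtfb) and hold them in the cytoplasm. When monomers are built into filaments, the MRTFs are freed, enter the nucleus and bind SRF, which sits on a short DNA element called the CArG box and activates genes for actin itself and for proteins that bind actin. Ternary complex factors of the Elk family are the other coactivators of SRF and serve immediate early genes such as Egr1 and Fos. Myoblasts carry the cytoplasmic actins and, before they fuse, also genes first described in smooth muscle. Sarcomeric actins and actinins build the contractile apparatus of myotubes.

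The CArG boxes near the start sites of the members are shown first, as the element through which SRF is known to read this pathway. The box is 10 bases long, a pair of C and a pair of G with 6 bases between them that are each A or T. It was searched in RefSeq windows of the mouse assembly GRCm38.p6 from 250 bases before to 50 bases after each start site, which hold 33 of the 40 members in 46 windows. No window was found for Actb, Actg2, Actn3, Csrp2, Diaph1, Myocd and Tagln. In each line the gene strand is written 5′ to 3′ and the box is in capitals.

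Acta1, chr8:123894819-123894868, minus strand, box at -73: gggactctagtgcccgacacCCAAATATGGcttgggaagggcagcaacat
Actc1, chr2:114052893-114052942, minus strand, box at -47: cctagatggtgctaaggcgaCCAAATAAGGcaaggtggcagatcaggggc
Actg1, chr11:120348556-120348605, minus strand, box at -90: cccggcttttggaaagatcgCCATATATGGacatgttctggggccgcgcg
Cnn2, chr10:79988524-79988573, plus strand, box at -56: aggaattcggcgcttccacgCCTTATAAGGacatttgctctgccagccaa
Lima1, chr15:99820167-99820216, minus strand, box at -47: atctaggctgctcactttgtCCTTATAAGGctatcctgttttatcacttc
Fhl1, chrX:56779561-56779610, plus strand, box at -102: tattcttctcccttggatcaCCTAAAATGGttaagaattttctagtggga
Fhl2 window 1, chr1:43196828-43196877, minus strand, box at -96: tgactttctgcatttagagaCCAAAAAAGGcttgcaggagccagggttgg
Fhl2 window 2, chr1:43163963-43164012, minus strand, box at -31: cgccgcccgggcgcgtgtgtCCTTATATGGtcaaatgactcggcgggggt

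The positions give the first base of the box from the start site, with bases before it as negative numbers. These 7 genes were 21.2% of the 33 members with a window, while 488 of all 27025 genes with a window (1.81%) and 535 of all 32851 windows of the same length (1.63%) held an exact box. Because members were partly picked as known SRF targets, this share is a description without a test. Cnn2 and Lima1 carried the same 10 letters. A box with 1 mismatch among its 6 central bases was found in 6 members (Acta1, Acta2, Actc1, Flnc, Mrtfa and Tpm3) and in 9.69% of all genes with a window (8.5% of windows). The Acta2 window held a pair of them, at -84 and -34, in capitals here.

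Acta2, chr19:34255388-34255467, minus strand: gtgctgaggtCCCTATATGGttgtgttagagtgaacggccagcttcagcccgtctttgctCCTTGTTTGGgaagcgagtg

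A match describes letters in a window and is neither a site nor a cause, and a window without one shows only that these letters are not in it. The letters GGAATG, a motif of TEAD factors, were in the windows of 12 members and in those of 16.6% of all genes (14.7% of windows), on either strand. The AP-1 motif TGANTCA was in those of 4 members (Actn4, Cald1, Mrtfb and Palld) and in those of 8.97% of all genes (7.81% of windows). In the members no match to either motif overlapped a CArG box. Actn4, Cald1, Mrtfb and Palld held both GGAATG and TGANTCA, which lay in the same window for Actn4 and Mrtfb.

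**Figure D1:**
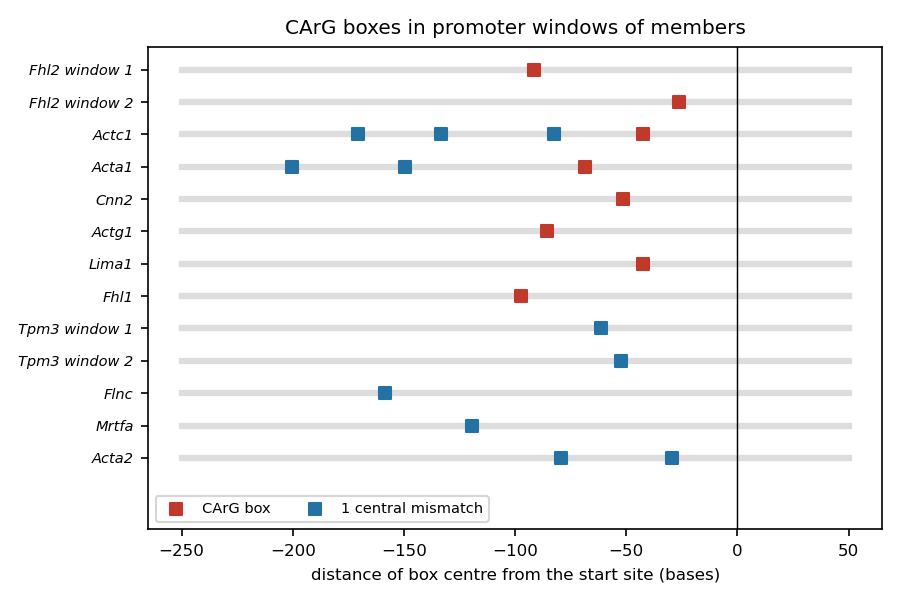
CArG boxes in the promoter windows of members. The x axis gives the distance of the box centre from the start site in bases, each grey bar is 1 window of 250 bases before to 50 after the start, red squares are exact boxes and blue squares are boxes with 1 central mismatch. Acta1 and Actc1 hold exact boxes together with mismatched ones, and all exact boxes lie within -102 to -31, counted at their first base.

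Expression was given as FPKM, fragments scaled by transcript length and by the number of mapped fragments of the library, so that levels compare genes per length. Depth is not kept in FPKM. The commonest log2 ratio of values under 0.1 FPKM between libraries lay between -0.02 and 0.01 over the 15 pairs of libraries, so no library stood apart in relative depth by this reading. Of the 40 members, 35 averaged 0.5 FPKM or more across the 6 libraries and were tested, among 11593 tested genes. The test was limma on log2(FPKM + 0.5) over all of these genes, with Benjamini-Hochberg adjustment, and a gene was called at an adjusted p of at most 0.05. Fold changes are 4H minus CON on that log2 scale, which understates the change of genes at low levels. Values are given as mean ± SD with n = 3 per group.

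Of the 35 tested members, 29 were called higher in the 4H group, against 22.6% of all tested genes. None was called lower, against 24.1% of all tested genes, and none was lower at an unadjusted limma p under 0.05, at which 30 were higher. In 30 members every 4H library lay above every CON library, a pattern found in 27.5% of all tested genes. The median fold change was 0.47 over the 35 members and -0.01 over all tested genes. At a fold change of at least 1 as well as the adjusted p, thresholds of the study, 4 members passed (Actn3, Tagln, Cnn2 and Actg2), against 2.61% of all tested genes higher and 1.28% lower. Most members thus rose by less than the study's fold threshold. The 40 genes together summed to 6646 ± 46.5 FPKM in CON and 9813 ± 65.9 FPKM in 4H libraries, which was 1.68% and 2.54% of all FPKM in the table. The libraries of the groups did not overlap in this sum, and the exact permutation test (two-sided) gave p = 0.1, the smallest that 3 against 3 libraries allow.

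**Figure D2:**
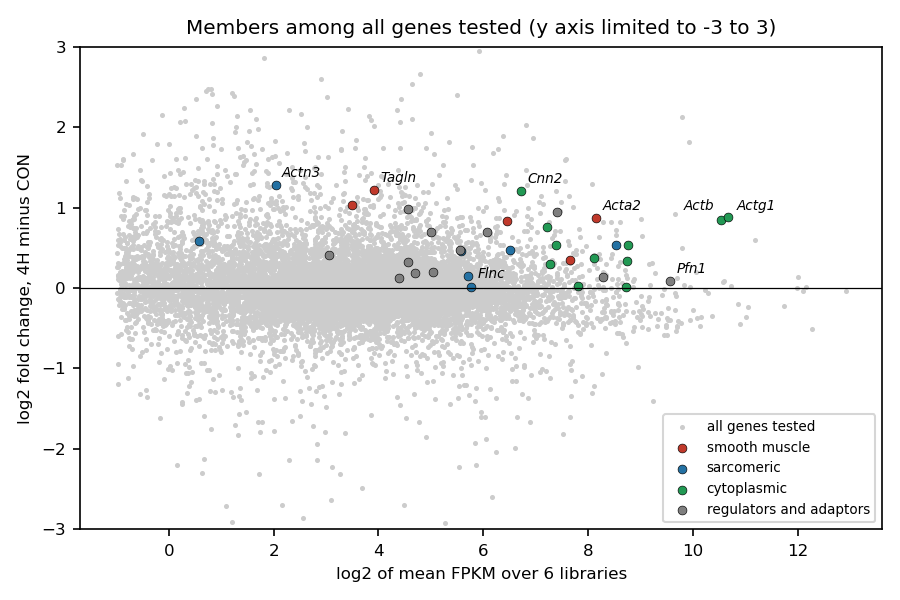
Members among all genes tested. The x axis is the log2 of mean FPKM over the 6 libraries and the y axis the log2 fold change of 4H against CON, with 1 grey point per tested gene (5 lie beyond the axis) and members coloured by class. Every coloured point lies above 0, from 0.02 for Flnc to 1.28 for Actn3, and Actb and Actg1 lie furthest to the right.

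Of 8 myoblast markers 7 averaged 0.5 FPKM or more and could be tested, 5 were called higher and 1 lower in the 4H group, with Myod1, a myogenic transcription factor, at 5.13 ± 0.57 and 18.2 ± 0.74 FPKM. The lower one was Myf5, chosen for naming after its values were seen, at 15.8 ± 0.85 and 9.82 ± 1.13 FPKM. The 11 markers of differentiated skeletal muscle summed to 2.30 to 2.65 FPKM in CON and 2.69 to 3.601 in 4H libraries, with Mymx and Myh8 listed at 0. Of the 2 that could be tested, 1 was called higher, Mymk, which is needed for myoblast fusion (0.52 ± 0.16 to 1.01 ± 0.12 FPKM, fold change 0.57, limma adjusted p = 0.0194). Among the untested ones, all under 1 FPKM, Tnnt3, Tnni1 and Ttn were higher and Myog was lower in every 4H library than in any CON library. Of the 5 markers of differentiated smooth muscle, which summed to 24.5 to 28.9 and 27.5 to 33.5 FPKM, nearly all came from Hspb6, and Myh11, the smooth muscle myosin, was at a mean of 0.018 and 0.014 FPKM. The 5 fibroblast markers, mostly Col1a2, summed to 124.0 to 129 FPKM in CON and 97.5 to 101 in 4H libraries. Col1a2, a collagen chain, was called lower (fold change -0.41), while Pdgfra, a growth factor receptor, was called higher, from 3.15 ± 0.29 to 5.08 ± 0.32 FPKM (0.62, limma adjusted p = 0.000753). Dcn was higher in every 4H library without being called. Endothelial markers (3) and epithelial markers (4) reached at most 0.261 and 0.553 FPKM in sum. Of the 3 immune markers, Ptprc and Adgre1 were listed at 0 and Cd68 was at 7.57 ± 0.89 and 16.4 ± 1.29 FPKM. The part of the moving markers in the results that follow was not tested. In such bulk samples a change in the number of cells of a type and a change in RNA per cell cannot be told apart.

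Among the actins, the proteins that form the filaments, the cytoplasmic genes made up most of the total, and all 5 actin genes above 0 were called higher. Actb, cytoplasmic beta-actin (ENSMUSG00000029580, chr5:142903115-142907976), was at 1079.8, 1062.6 and 1044.7 FPKM in CON 1 to 3 and at 1911, 1914 and 1889 FPKM in 4H 1 to 3. The lowest 4H library lay far above the highest CON library. Its fold change was 0.84 (SE 0.02, limma adjusted p = 1.20e-07). Actg1, cytoplasmic gamma-actin (ENSMUSG00000062825, chr11:120345687-120348495), stood at 1118, 1167 and 1161 FPKM in CON and 2126.8, 2129.8 and 2118.3 FPKM in 4H libraries. No library of either group came near the other, with a fold change of 0.89 (SE 0.03, limma adjusted p = 1.22e-07). In the whole table Actg1 ranked 14 and Actb 17 by mean FPKM. Of the 75-base stretches of Actg1 transcripts, 33.45% recur in transcripts of 10 other genes, most of them pseudogenes, so its level depends on how such reads were shared out, whereas for Actb the share was 1.58%.

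Acta2, smooth muscle alpha-actin (ENSMUSG00000035783, chr19:34240336-34255585), was at 181, 214 and 209 FPKM in CON 1 to 3 and 369, 375 and 359 FPKM in 4H 1 to 3. The groups were well apart although CON 1 was lower than CON 2 and CON 3. The fold change was 0.87 (SE 0.06, limma adjusted p = 1.04e-05). Actg2, smooth muscle gamma-actin (ENSMUSG00000059430, chr6:83512909-83536251), was less abundant, at 6.38, 7.69 and 7.56 FPKM in CON and 15.9, 14.9 and 15.1 FPKM in 4H libraries. It had the largest fold change of the actins, 1.04 (SE 0.08, limma adjusted p = 1.68e-05), close to the fold threshold: without CON 1 it was no longer past it, and 3 members in place of 4 were.

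Of the sarcomeric actins, Acta1 (skeletal alpha-actin) was at 1.51, 1.07 and 0.737 FPKM in CON 1 to 3 and 1.93, 1.84 and 1.84 FPKM in 4H 1 to 3. The groups did not overlap, but the CON libraries were spread over a wide range. Its fold change of 0.59 (SE 0.17, limma adjusted p = 0.0235) was the least secure call among the members, since it missed the threshold without any one of CON 2, CON 3, 4H 1, 4H 2 or 4H 3 (adjusted p = 0.0535 to 0.0595) and after quantile normalization (0.0545). Actc1, cardiac alpha-actin, was listed at 0 in all 6 libraries, although its window carries an exact CArG box.

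The 6 actin genes together were at 2421 ± 32.9 FPKM in CON and 4415 ± 27.4 FPKM in 4H libraries, a ratio of 1.82 (exact permutation test, p = 0.1, the smallest possible). Their shares of this total were as follows. Actb was 43.9% ± 1.16 of actin FPKM in CON and 43.1% ± 0.04 in 4H libraries, and Actg1 47.4% ± 0.55 and 48.1% ± 0.16. The muscle actins Acta2, Actg2, Acta1 and Actc1 together took 7.93%, 9.10% and 8.96% in CON 1 to 3 and 8.74%, 8.83% and 8.57% in 4H 1 to 3 (exact permutation test, p = 1), so that CON 1 lay below and CON 2 and CON 3 above all 4H libraries. The log2 ratio of Acta2 to Actb was -2.57, -2.31 and -2.32 in CON 1 to 3 and -2.37, -2.35 and -2.39 in 4H 1 to 3, a difference of 0.03 (exact permutation test, p = 1). The overlap came from CON 1: without it the difference was -0.06, with every 4H library below CON 2 and CON 3 (exact permutation test, p = 0.2, the smallest that 2 against 3 libraries allow).

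**Figure D3:**
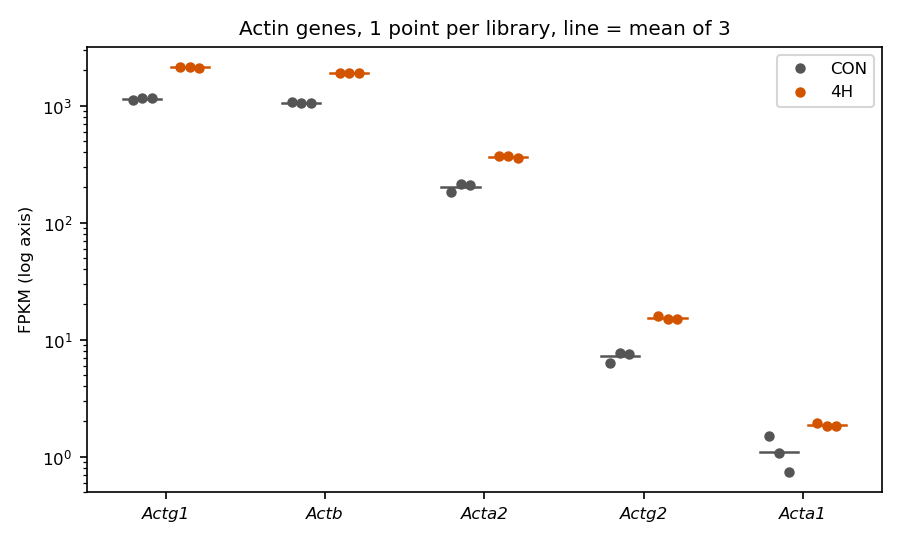
Levels of the 5 actin genes above 0. The y axis is FPKM on a log axis, each point is 1 library and each line the mean of 3 (CON grey, 4H orange). For all 5 genes the orange points lie above the grey ones, and the order from Actg1 down to Acta1 is the same in both groups.

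The 7 genes put in the smooth muscle class are the smooth muscle actins and genes of proteins that bind actin. The classes were drawn up for this report, and Csrp2, also of smooth muscle, was placed with the regulators (fold change 0.32). A table per gene does not separate any non-muscle transcripts of these genes. Of the 5 tested, 5 rose, against 22.6% of all tested genes. The median fold change was 0.87, and 2 passed the fold threshold too. Tagln (ENSMUSG00000032085, chr9:45929628-45936058) encodes transgelin, an actin cross-linker of smooth muscle. Its levels were 8.82, 9.16 and 8.61 FPKM in CON 1 to 3 and 23.2, 21.3 and 19.5 FPKM in 4H 1 to 3. The 4H libraries differed more among themselves than the CON libraries but remained far above them, with a fold change of 1.22 (SE 0.07, limma adjusted p = 3.76e-06). Csrp1, a LIM protein of actin bundles, was at 60.2, 63.0 and 64.7 FPKM in CON and 110.8, 115 and 109.9 FPKM in 4H libraries. Both sets were tight, and the fold change was 0.83 (SE 0.04, limma adjusted p = 1.11e-06). Cald1, caldesmon, an inhibitor of actomyosin, had the smallest change of the class, from 177 ± 1.83 to 225 ± 2.74 FPKM, a fold change of 0.35 (SE 0.02, limma adjusted p = 1.50e-05).

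Cnn1 (calponin 1, which binds actin and myosin in smooth muscle) and Lmod1 (leiomodin 1, a nucleator of smooth muscle actin filaments) were too low to be tested. Cnn1 was listed at 0 in CON 1 and at 0.175 and 0.194 FPKM in CON 2 and CON 3, and at 0.447, 0.309 and 0.342 FPKM in 4H 1 to 3. Lmod1 was at 0.110, 0.199 and 0.243 FPKM in CON and 0.637, 0.509 and 0.535 FPKM in 4H libraries. In both genes every 4H library was above every CON library, at levels under 1 FPKM. With no filter on low values, Lmod1 had a fold change of 0.64 (limma adjusted p = 0.00265) and Cnn1 of 0.49 (limma adjusted p = 0.0361). After rescaling to TPM they were 1.03 (limma adjusted p = 0.00559) and 0.89 (limma adjusted p = 0.0473).

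The sarcomeric class holds genes of striated muscle. Of its 9 genes 7 could be tested, 6 rose, and the median fold change was 0.47. Actn3, the actinin of fast muscle fibres (ENSMUSG00000006457, chr19:4861216-4877909), was at 1.96, 2.27 and 2.32 FPKM in CON 1 to 3 and 6.57, 5.81 and 5.69 FPKM in 4H 1 to 3. No library of one group came near the other, and the fold change of 1.28 (SE 0.09, limma adjusted p = 1.60e-05) was the largest of all members, from a low level. Actn2, another actinin of striated muscle, was listed at 0 in all 6 libraries.

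Flnc, the filamin of striated muscle, was the exception in this class, with 54.5, 54.0 and 53.7 FPKM in CON 1 to 3 and 54.5, 53.6 and 56.0 FPKM in 4H 1 to 3. The groups overlapped, and the 95% interval of its fold change of 0.02 ran from -0.06 to 0.09 (limma adjusted p = 0.707). Cfl2, the muscle form of the filament-severing protein cofilin, rose slightly, from 49.7 ± 1.85 to 55.2 ± 0.61 FPKM, a fold change of 0.15 (limma adjusted p = 0.0107). Tropomyosins lie along the filament and control which proteins reach it. Tpm1 went from 302 ± 11.8 to 438 ± 7.66 FPKM (fold change 0.53, limma adjusted p = 6.75e-06) and Tpm2 from 76.2 ± 4.63 to 105.8 ± 1.63 FPKM (fold change 0.47, limma adjusted p = 6.87e-05). Both genes also give non-muscle transcripts, which a table per gene does not separate. Fhl1, a LIM protein of striated muscle, rose from 39.8 ± 0.77 to 55.0 ± 2.69 FPKM, a fold change of 0.46 (limma adjusted p = 6.13e-05).

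In the cytoplasmic class, found in nearly all cells, 9 of 11 genes rose, with a median fold change of 0.53. Cnn2, the non-muscle calponin (ENSMUSG00000004665, chr10:79988600-79995400), had the largest change of the class. It was at 59.9, 64.7 and 66.4 FPKM in CON 1 to 3 and at 151, 149 and 143 FPKM in 4H 1 to 3. Each 4H library was more than the sum of any pair of CON libraries, and the fold change was 1.21 (SE 0.04, limma adjusted p = 4.03e-07). Its box is among the sequences above. Cnn3, another calponin of non-muscle cells, rose much less, from 138 ± 4.46 to 170.0 ± 2.26 FPKM, a fold change of 0.30 (limma adjusted p = 0.000125).

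The actinins Actn1 and Actn4 cross-link filaments in stress fibres and at adhesions. Actn1 was at 109, 109 and 113 FPKM in CON 1 to 3 and 188, 191 and 184 FPKM in 4H 1 to 3. The groups were far apart, with a fold change of 0.76 (SE 0.03, limma adjusted p = 4.90e-07). Actn4 went from 137 ± 2.01 to 198 ± 10.9 FPKM, a fold change of 0.53 (SE 0.04, limma adjusted p = 2.15e-05). Flna, the main filamin of non-muscle cells, rose from 381 ± 7.98 to 481 ± 6.57 FPKM (fold change 0.34, limma adjusted p = 2.36e-05). Tagln2, the transgelin of non-muscle cells, rose from 241 ± 7.88 to 312 ± 6.30 FPKM (fold change 0.37, limma adjusted p = 3.86e-05).

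The non-muscle tropomyosin gene Tpm4 rose from 356 ± 4.02 to 514 ± 5.01 FPKM, a fold change of 0.53 (limma adjusted p = 1.08e-06). Tpm3, which serves both slow muscle and other cells, was at 222, 221 and 226 FPKM in CON 1 to 3 and 235, 226 and 223 FPKM in 4H 1 to 3. These values overlapped, with a fold change of 0.03 and a 95% interval from -0.04 to 0.10 (limma adjusted p = 0.444). The fold change of Tpm3 was 0.007 without 4H 1 and 0.04 without 4H 3. It was 0.09, and called, after quantile normalization (limma adjusted p = 0.0355). Of the 75-base stretches, 19.15% in Tpm3 and 9.11% in Tpm4 recur in other genes, which leaves their levels uncertain. Cfl1, the common cofilin, was at 421, 405 and 430.3 FPKM in CON and 413, 432 and 427 FPKM in 4H libraries, again overlapping. Its fold change was 0.02, with a 95% interval from -0.05 to 0.09 (limma adjusted p = 0.658).

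**Figure D4:**
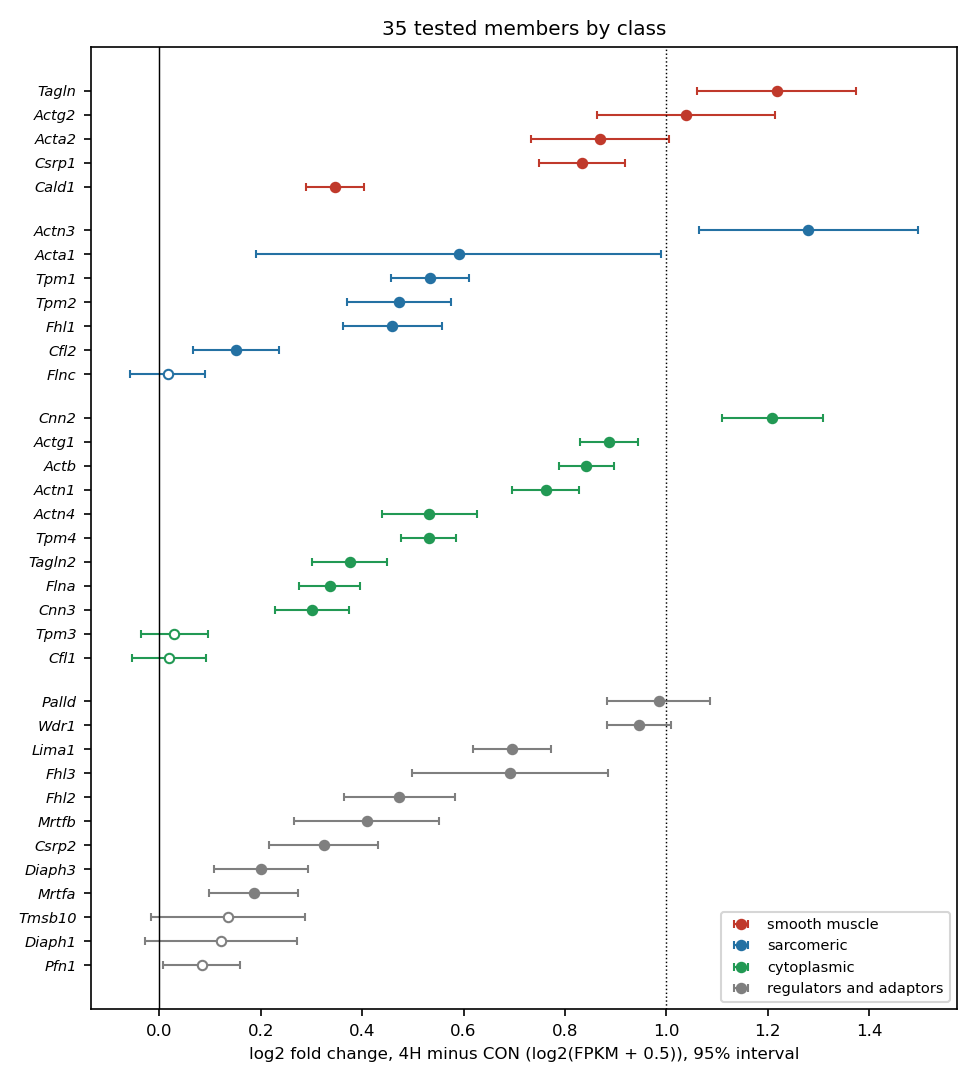
Fold changes of the 35 tested members by class. The x axis is the log2 fold change of 4H against CON on log2(FPKM + 0.5) with its 95% interval from limma, filled points are genes at an adjusted p of at most 0.05, open points the others, and the dotted line the fold threshold of 1. Each class holds genes near or above the dotted line, and the 6 open points are Flnc, Tpm3, Cfl1, Tmsb10, Diaph1 and Pfn1.

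The regulators and adaptors include the SRF coactivators and proteins that bind actin monomers or filaments. Of 13 genes 12 could be tested and 9 rose, with a median fold change of 0.37, and no gene reached the fold threshold. Wdr1, which helps cofilin to take filaments apart (chr5:38526806-38562922), was at 115, 116 and 117 FPKM in CON 1 to 3 and 226, 227 and 218 FPKM in 4H 1 to 3. The spread within either group was small, and the fold change was 0.95 (SE 0.03, limma adjusted p = 1.30e-07). Palld, palladin, a scaffold of stress fibres, was at 15.2, 16.3 and 15.7 FPKM in CON and 31.0, 32.4 and 31.6 FPKM in 4H libraries. Its groups were far apart, with a fold change of 0.98 (SE 0.04, limma adjusted p = 1.11e-06). Lima1, a LIM protein that bundles filaments, went from 51.0 ± 1.43 to 82.9 ± 1.11 FPKM, a fold change of 0.70 (SE 0.03, limma adjusted p = 1.60e-06), and is among the genes with an exact box.

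The MRTF genes themselves rose modestly. Mrtfa was at 24.1, 24.7 and 24.4 FPKM in CON 1 to 3 and 27.7, 27.2 and 28.5 FPKM in 4H 1 to 3. The groups were separate but close, with a fold change of 0.19 (SE 0.04, limma adjusted p = 0.00470). Mrtfb was at 7.40, 7.09 and 6.65 FPKM in CON and 9.73, 9.52 and 9.27 FPKM in 4H libraries, a fold change of 0.41 (SE 0.06, limma adjusted p = 0.000919). Their activity is set by where the proteins are in the cell, which RNA levels do not show. Myocd, myocardin, the coactivator of cardiac and smooth muscle, was near 0, at 0.020, 0.056 and 0.069 FPKM in CON libraries and at 0, 0.110 and 0 FPKM in 4H libraries, and was not tested.

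The LIM-only cofactors Fhl2 and Fhl3 both rose. Fhl2, whose windows carry exact boxes, was at 40.8, 40.4 and 37.5 FPKM in CON 1 to 3 and 52.3, 56.6 and 56.6 FPKM in 4H 1 to 3. The lowest 4H library was above the highest CON library, and the fold change was 0.47 (limma adjusted p = 0.000101). Fhl3 went from 24.5 ± 2.40 to 39.8 ± 3.48 FPKM (fold change 0.69, SE 0.08, limma adjusted p = 0.000284). Csrp2, a LIM protein of smooth muscle and developing tissue, went from 21.04 ± 0.95 to 26.5 ± 0.66 FPKM (fold change 0.32, limma adjusted p = 0.000721).

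Of the formins, which nucleate and extend filaments, Diaph3 rose from 30.4 ± 0.16 to 35.1 ± 1.40 FPKM (fold change 0.20, limma adjusted p = 0.00416). Diaph1, the formin activated by RhoA, was at 18.3, 20.6 and 21.2 FPKM in CON 1 to 3 and 20.9, 21.5 and 23.0 FPKM in 4H 1 to 3. The groups overlapped, and its fold change of 0.12 had a 95% interval from -0.03 to 0.27 (limma adjusted p = 0.161). Without CON 1 it was 0.06 and without CON 3 0.16, uncalled in both (limma adjusted p = 0.446 and 0.107). Neither of the abundant monomer-binding proteins Pfn1 and Tmsb10 was called. Pfn1, profilin, which feeds monomers to growing filaments, was at 741, 724 and 747 FPKM in CON libraries. In 4H libraries it was at 747, 788 and 809 FPKM.

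For Pfn1, 4H 1 lay only just above CON 3, and the groups barely parted. Its fold change was 0.08, with a 95% interval from 0.01 to 0.16 (limma adjusted p = 0.0728), and without 4H 1 it was 0.11 (limma adjusted p = 0.0144). Tmsb10, thymosin beta 10, which keeps monomers out of filaments, was at 301, 280 and 310 FPKM in CON and 294, 352 and 333 FPKM in 4H libraries. The groups overlapped through 4H 1. Its fold change was 0.14, with a 95% interval from -0.02 to 0.29 (limma adjusted p = 0.130), and it moved from 0.08 without 4H 2 (limma adjusted p = 0.359) to 0.21 without 4H 1 (limma adjusted p = 0.0120). Other genes share 19.25% of its 75-base stretches.

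The contrast between isoforms of a family was put to a direct test as the log2 ratio of paralogs in each library, in which the scaling of a library largely cancels. Of 21 pairs, 18 had both genes at a mean of at least 0.5 FPKM. In 10 pairs the ratio was higher in every 4H library, in 3 it was lower and in 5 the groups overlapped. How often other pairs of genes part in this way was not computed, so these counts are a description. Of single tested genes, 27.5% were higher in every 4H library. No pair could reach 0.05 in the exact permutation test, whose smallest p is 0.1 (0.138 after Benjamini-Hochberg adjustment over the 18 pairs).

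The largest shift lay between 2 non-muscle genes, Cnn3 and Cnn2. Their log2 ratio was 1.15, 1.13 and 1.05 in CON 1 to 3 and 0.19, 0.17 and 0.25 in 4H 1 to 3, a difference of -0.91 (exact permutation p = 0.1). Cnn3 was thus well above Cnn2 in CON cells and close to it in 4H cells. The smooth muscle gene Tagln gained on its non-muscle paralog Tagln2, with log2 ratios of -4.64, -4.68 and -4.75 in CON and -3.69, -3.87 and -3.97 in 4H libraries. That was a difference of 0.84 (exact permutation p = 0.1). Tagln remained the far less abundant gene of the pair. The ratio of Actn3 to Actn4 rose by 0.75 and that of Actn1 to Actn4 by 0.23, without overlap (exact permutation p = 0.1 for each).

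Among the tropomyosins, Tpm1, Tpm2 and Tpm4 all gained on Tpm3, with differences of 0.50, 0.44 and 0.50 and no overlap. These genes differed in class but shifted alike, each against the 1 gene of the family that was not called. The striated filamin Flnc lost ground to Flna by -0.32, and Csrp2 to Csrp1 by -0.51. Small shifts without overlap were also seen for Mrtfb to Mrtfa (0.22), Actg2 to Actb (0.20), Cfl2 to Cfl1 (0.13) and Actg1 to Actb (0.05), each at the smallest exact permutation p of 0.1. Without CON 1, the difference for Actg2 to Actb was 0.10 and that for Actg1 to Actb 0.01. The groups overlapped for Acta2 to Actb (0.03), Acta1 to Actb (-0.25), Fhl2 to Fhl1 (0.01), Fhl3 to Fhl1 (0.23) and Diaph3 to Diaph1 (0.08). Each of these 5 differences moved by over 1.5 times when 1 library was left out, over -0.06 to 0.07, -0.41 to -0.09, -0.03 to 0.09, 0.14 to 0.33 and 0.03 to 0.15, respectively. By class, the muscle gene gained on its cytoplasmic paralog without overlap in the transgelin, actinin (Actn3) and cofilin pairs and for Actg2. It lost ground in the filamin pair, and the groups overlapped for Acta2 (through CON 1) and Acta1. Tpm1 and Tpm2 gained on Tpm3, but the cytoplasmic gene Tpm4 did too, so this gain was not particular to the muscle genes. After quantile normalization the groups overlapped for Actg2 to Actb and Actg1 to Actb (exact permutation p = 0.2 and 0.4). Acta1 to Actb was then lower without overlap (-0.43, exact permutation p = 0.1). At a pseudocount of 1 it was too (-0.38, exact permutation p = 0.1).

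**Figure D5:**
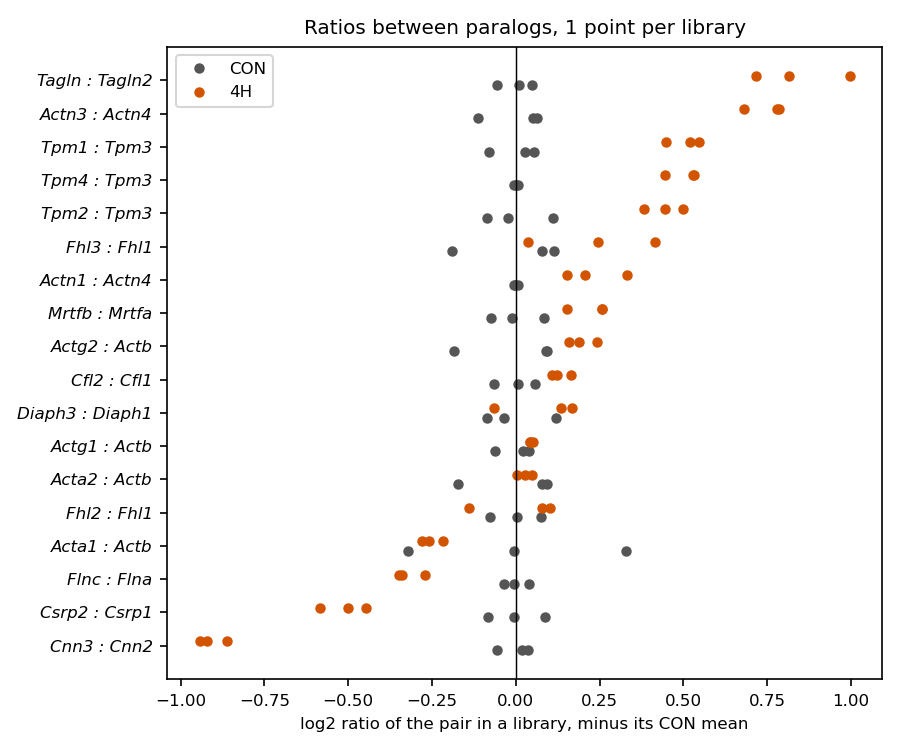
Log2 ratios between paralogs in each library. The x axis is the log2 ratio of a pair minus its mean in the CON group, with 1 point per library (CON grey, 4H orange), and each row is 1 pair. Tagln to Tagln2 and Actn3 to Actn4 lie furthest to the right (0.84 and 0.75), Cnn3 to Cnn2 furthest to the left (-0.91), and the actin pairs with Actb lie near 0 or overlap.

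Other genes of the pathway were read from lists made for this comparison, with earlier results of these data known. Of 19 further targets of MRTF and SRF, 18 could be tested and 18 rose, against 22.6% of all tested genes. Their median was 0.86, and 7 were past the fold threshold, against 2.61% of all tested genes. The largest changes were in Ccn2, a secreted matrix-associated factor (7.18 ± 0.71 to 48.1 ± 2.77 FPKM, fold change 2.66), Thbs1, thrombospondin (44.1 ± 3.27 to 182 ± 2.00 FPKM, 2.04), and Myl9, a myosin light chain (6.60 ± 0.73 to 19.7 ± 2.25 FPKM, 1.51). Srf itself, named after its values were seen, was at 16.5, 16.2 and 16.4 FPKM in CON 1 to 3 and 33.7, 34.2 and 31.8 FPKM in 4H 1 to 3. The groups were far apart, and the fold change was 1.00 (SE 0.04, limma adjusted p = 9.33e-07).

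Of the 12 genes of the ternary complex factor branch, 9 rose and 1 fell, against 22.6% and 24.1% of all tested genes. Their median was 0.75, and 5 passed the fold threshold, against 2.61% of all tested genes. The largest changes were in the immediate early genes Egr3 (0.66 ± 0.03 to 3.35 ± 0.25 FPKM, fold change 1.73), Fosb (0.30 ± 0.11 to 1.90 ± 0.10 FPKM, 1.60) and Egr2 (0.69 ± 0.06 to 2.50 ± 0.18 FPKM, 1.33), all at low levels. The gene that fell, named after its values were seen, was Elk1, a ternary complex factor, from 9.47 ± 0.38 to 7.00 ± 0.15 FPKM (fold change -0.41, limma adjusted p = 0.000665).

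Of 35 other genes of actin assembly and turnover, 32 could be tested, with a median of 0.27. Of these 24 rose and 4 fell, against 22.6% and 24.1% of all tested genes. Tmsb4x, thymosin beta 4, a monomer-binding relative of Tmsb10, rose from 225 ± 6.61 to 399 ± 16.0 FPKM (fold change 0.83, limma adjusted p = 1.11e-06). Pfn2, the second profilin, rose from 1.30 ± 0.05 to 2.67 ± 0.05 FPKM (0.81, limma adjusted p = 0.000188). The largest change was a fall, in Arpc5l, a subunit of the branching Arp2/3 complex, from 55.8 ± 2.27 to 30.4 ± 2.51 FPKM (-0.87, limma adjusted p = 1.47e-05). Coro1b, Evl and Wasf2 also fell, and are named with their values known.

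Of 19 genes of the RhoA, ROCK and LIM kinase route to actin, 18 could be tested, 9 rose and 3 fell, with a median of 0.15, against 22.6% and 24.1% of all tested genes. Rhob, a small GTPase, rose from 83.0 ± 1.39 to 136 ± 4.05 FPKM (fold change 0.71), and Limk1, the kinase that inactivates cofilin, from 9.87 ± 0.71 to 16.2 ± 0.29 FPKM (0.69). Arhgef2, an activator of RhoA, fell from 112 ± 4.47 to 69.5 ± 5.02 FPKM (-0.68, limma adjusted p = 2.88e-05). The other 2 that fell, named after their values were seen, were Ppp1cb and Rnd3.

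Across all tested genes with a promoter window, 52 of the 141 with an exact CArG box were higher in the 4H group (36.9%), with a median fold change of 0.09. Without the members these were 46 of 135 (34.1%), with a median of 0.08. Of 8804 genes whose windows held no exact box, 22.2% were higher, with a median of -0.01. Genes with an exact box were lower about as often as those without, at 33 of 141 (23.4%) against 24.4%. This grouping was made after the data were seen and is a description. Among the members, exact boxes stood both at genes with large changes (Cnn2, Actg1 and Lima1) and at Actc1, listed at 0, while Wdr1 and Palld had none in their windows.

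Antisense exons overlap Actn1, Actn4, Cfl1, Cfl2, Cnn3, Mrtfa, Mrtfb, Tagln, Tpm4 and Wdr1 in the annotation. The sources used here do not give whether the counting used the strand, so reads of these neighbours may be part of their values.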

How the data were processed

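The authors sequenced poly(A) RNA of C2C12 cells and deposited 1 table of FPKM values per gene, with 1 column per library. Per the submitters' processing notes the build was mm10. Aligner, counting tool and annotation were not given in the sources used here. The study's DESeq2 needs counts and was not run.

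Genes averaging 0.5 FPKM or more were fitted with limma 3.58.1 in R 4.3.3 (lmFit, eBayes with a trend, two-sided) on log2(FPKM + 0.5), over the 3 CON and 3 4H libraries, with Benjamini-Hochberg adjustment over 11593 genes. This step was tested on simulated data. Ratios and sums were compared by exact permutation. Promoter windows and gene positions came from RefSeq (GRCm38.p6, the assembly of mm10), and shared sequence and exon overlaps from GENCODE M21. Python 3.11.15 was used for tables and plots.

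The members and lists were chosen with earlier results of these data known. All 40 members are named. Of the other lists, counts are given, plus at most the 3 genes with the largest change among those called without overlap. Srf, Elk1, Coro1b, Evl, Wasf2, Ppp1cb, Rnd3, Myf5, Dcn, Tnnt3, Tnni1, Ttn, Myog and the markers at or near 0 or carrying a sum lie outside this rule. FPKM keeps no depth, so precision rests on 3 libraries per group. The 16 alternatives were pseudocounts, filters, a replicate block, limma without trend, TPM, median-of-ratios and quantile scaling, and each library left out.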

Additional observations from a re-analysis of the deposited data

How the results depend on the processing

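Under the 16 alternatives, 27 (filter at a mean of 5 FPKM) to 32 (rescaled to TPM) members were called higher, none was called lower, and 3 to 6 passed the fold threshold too. Leaving out each library in turn gave 28 to 30 higher and 3 to 5 past the fold threshold. Palld joined at a pseudocount of 0.1, with TPM, and without CON 2 or 4H 1, Lmod1 joined with TPM, and Actg2 was lost at a pseudocount of 1 and without CON 1. The 13 paralog pairs without overlap became 12 after quantile normalization, with Actg2 to Actb and Actg1 to Actb lost and Acta1 to Actb gained. Leaving out a library cannot make a separated pair overlap. Those counts, up to 15 without 4H 1, could therefore only stay or rise. Of 558 fold changes of members recomputed, 546 kept their side of the threshold, of which only the uncalled Flnc (-0.0012 without 4H 3) and Cfl1 (-0.0056 without CON 2) changed sign, 6 lost the call (all Acta1) and 6 gained it (Pfn1, Tmsb10 and Tpm3), and none of the called ones turned. After quantile normalization, Pfn1 had a fold change of 0.25, Tmsb10 of 0.20 and Tpm3 of 0.09 (limma adjusted p = 0.000124, 0.0427 and 0.0355). Of 198 recomputed ratio differences 4 changed sign, 3 for Fhl2 to Fhl1 and 1 for Acta2 to Actb, which without CON 1 was -0.06 with the groups apart. The cause of these changes was not tested. Same-numbered libraries did not deviate together (correlations of 0.02, -0.09 and -0.13). By the numbers in the titles, CON 3 shares its number with 4H 2, at 0.18, the highest of the 9 values, and CON 1 with 4H 1, at 0.02. Not every pair was over 0.1, so the numbers were not taken as pairs, and the fit with the replicate block called 29 higher and 0 lower, with 4 past the fold threshold. FPKM keeps no depth, so no counting error can be given, and genes under 0.5 FPKM rest on few fragments.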
